A study of Mus musculus with 4 samples.

Results

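The sirtuins and the enzymes that supply them with NAD were followed in mouse fibroblasts after an oxidative pulse. The genes were *Sirt1* to *Sirt7*, *Nampt* and *Nmnat1*, 9 of the 30175 gene names on the array, and every probe that carried 1 of these names was taken, which gave 13 of 39429 probes. *Sirt4* and *Sirt6* had several probes, as did *Sirt7*, and the other 6 genes had 1 each. RNA came from NIH-3T3:Per2-Luc cells, a mouse embryonic fibroblast line that carries luciferase under the *Per2* promoter, and each of 4 conditions was hybridized once, on the 4 one-color arrays of a single slide. The control (0 mM H2O2) received fresh medium in place of the pulse, and its label places it at 4 h. The other arrays held cells that had been given a cOS-pulse, that is 10 min of 5 mM H2O2, and were taken after 4 h, after 20 h and after 32 h. This is the dose that the study calls critical oxidative stress. The question was how genes of NAD-dependent signalling stood in the first hours after the pulse and at the later, antiphase hours of the circadian cycle.

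No condition had a replicate array, so no statistical test was possible, and precision is limited by there being so few arrays. Values are log2 signals relative to the 75th percentile of their own array, and a ratio is the difference of 2 such values. The ± after a value is the spot error of the scanner software, which includes a preset multiplicative term of 10% and covers the spot only, not differences between cultures. All 3 comparisons with the control share the same control array, and at 20 h and 32 h the pulse and the hours since the medium exchange cannot be told apart. Since RNA was taken from whole cultures, fewer cells of a kind and less RNA per cell cannot be told apart either. Of the probes, 52.7% to 59.1% per array were well above background. All 8 fibroblast markers examined were well above background on every array. Of 14 markers of other cell types, 5 were so in the control, 8 at 4 h, 6 at 20 h and 4 at 32 h, with scaled log2 signals of all 14 between -6.85 and -0.89 in the control and between -6.94 and 0.75 at 4 h. *Epcam*, *Cdh1*, *Krt18*, *Ptprc*, *Myod1* and *Des* were not well above background on any array, while *Cd68* was higher at 4 h by a log2 ratio of 2.08 ± 0.21, *Cdh5* by 1.87 ± 0.30 and *Krt8* by 1.17 ± 0.21. Among the fibroblast markers, *Pdgfrb* had a log2 ratio of -1.35 ± 0.20 at 4 h, while *S100a4* had 0.05 ± 0.20. At 20 h *Thy1* had -1.39 ± 0.20, *Col1a1* -1.06 ± 0.20 and *Col3a1* -1.02 ± 0.20, while *Vim* had 0.04 ± 0.20. The part of these markers in the values that follow was not tested.

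Sirtuins are enzymes that remove acetyl and other acyl groups from proteins and use up NAD with each reaction, so their activity is tied to the supply of NAD. SIRT1, SIRT6 and SIRT7 reside mainly in the nucleus, SIRT2 mainly in the cytoplasm, and SIRT3, SIRT4 and SIRT5 in mitochondria. NAMPT is the rate-limiting enzyme of the salvage route, which turns nicotinamide into nicotinamide mononucleotide, and NMNAT1 turns that product into NAD in the nucleus. The clock activator BMAL1:CLOCK drives *Nampt* through E-boxes, and SIRT1 in turn acts on clock proteins, which makes this loop a known link between metabolism and circadian time.

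The first 30 bases of 5 of the 60-base probes are given because the 4 h values turn on them, with the *Sirt4* pair shown since its probes gave different ratios. Positions are those of the whole probe in the array annotation (mm9). None of the 5 windows was assigned to an exon or UTR here.
Nampt A_51_P387235, chr12:33535475-33535534, plus strand: actaacatgttcattgtacagatgtgtggg
Nmnat1 A_55_P2146374, chr4:148842959-148843018, minus strand: attgagaagcatgagctgtacaacacggag
Sirt4 A_55_P2185372, chr5:115929657-115929716, minus strand: ctggattcccgctgtggagagttgctgcct
Sirt4 A_51_P424641, chr5:115928163-115928222, minus strand: cagaagtcagtaaaccacaactgtctatga
Sirt5 A_51_P411909, chr13:43490351-43490410, plus strand: ccagcagcaaatgtgtttgatctggaagag

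At 4 h after cOS-pulse, the 9 genes did not move as a block. The mitochondrial sirtuin *Sirt5* was 4.24-fold lower than in the control and 1 of the 2 *Sirt4* probes was 2.34-fold lower, whereas *Nampt* was 1.75-fold higher. All 13 probes were well above background on all 4 arrays, each with 1 spot, and none was saturated or flagged. Of the 13, 2 were at least 2-fold lower at 4 h and 0 were at least 2-fold higher. Over all probes measured on both arrays, 7.91% were at least 2-fold lower and 8.63% at least 2-fold higher. Beyond 2 spot errors, 3 probes were higher (*Sirt1*, *Nampt* and *Sirt7* A_55_P2045693) and 4 were lower (*Sirt5*, *Nmnat1*, *Sirt4* A_51_P424641 and *Sirt6* A_55_P2185794), against 30.8% and 20.9% of all measured probes. All 4 lower ones stayed beyond 2 spot errors under the 5 other scalings tried, whereas none of the 3 higher ones did so under all of them, and with spike-in scaling the counts were 0 higher and 5 lower. The median log2 ratio of the 13 probes was 0.01 and that of all measured probes 0.17, so 6 of the 13 lay above the median of all probes and 7 below it. Of the 13, 7 had a ratio above 0, against 60.2% of all measured probes, and this number was 3 with spike-in or median scaling.

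**Figure D1:**
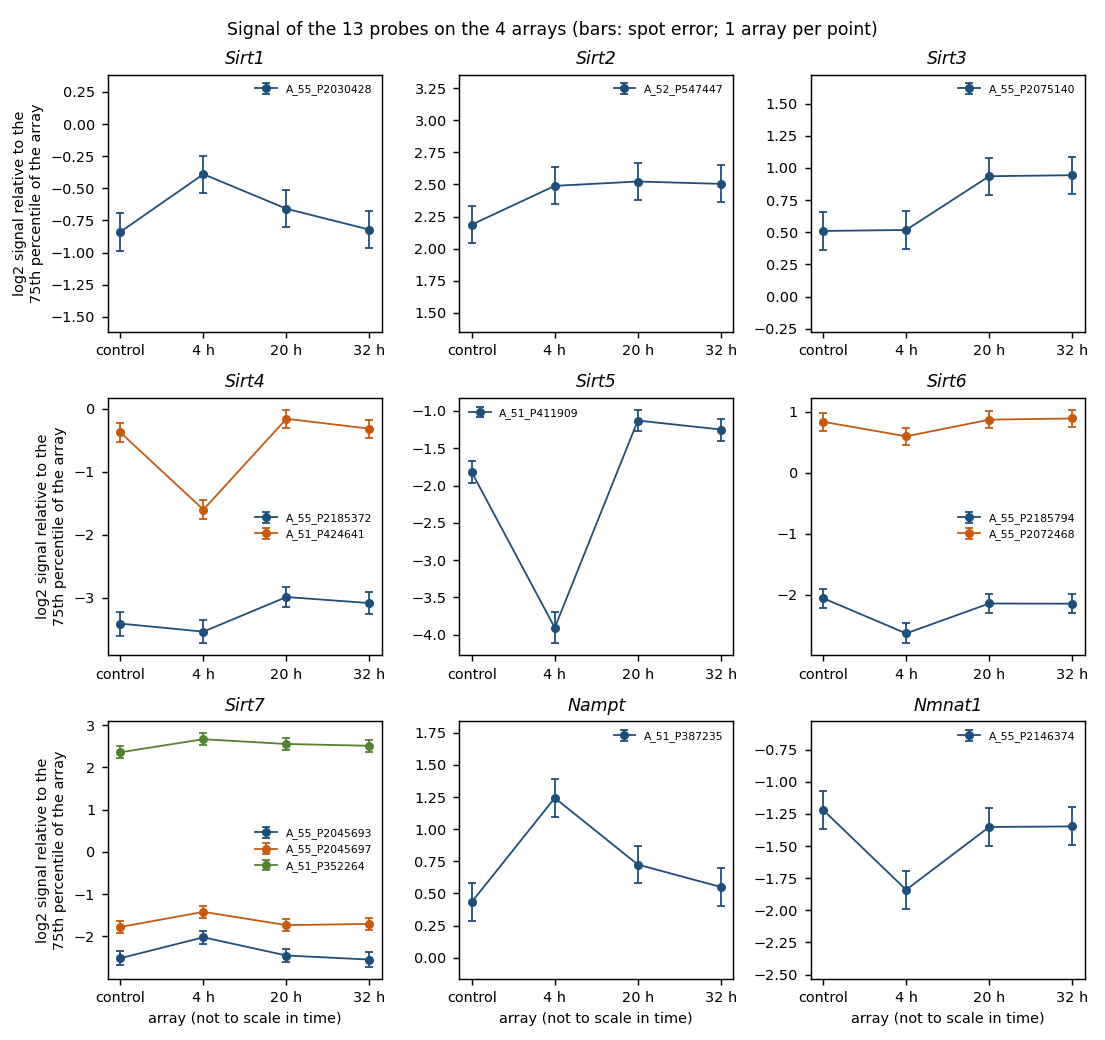
Scaled log2 signal of each of the 13 probes on the control array and on the arrays 4 h, 20 h and 32 h after cOS-pulse, 1 panel per gene with its own axis range, and bars giving the spot error. Each point is 1 array; *Sirt5* and *Sirt4* A_51_P424641 are lowest at 4 h (-3.91 and -1.60), and *Nampt* is highest there (1.24) under this scaling but not with spike-in scaling or unscaled signals.

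The 2 NAD synthesis enzymes stood on opposite sides of the control at 4 h. *Nampt*, the rate-limiting enzyme of NAD salvage, had a scaled log2 signal of 0.43 in the control, 1.24 at 4 h, 0.72 at 20 h and 0.55 at 32 h, each ± 0.14. The 4 h array was the highest of the 4 under the scaling used, and only the step from 20 h to 4 h in this order, 0.52 ± 0.20, exceeded 2 spot errors. This order depended on the scaling, since 4 h was highest under 3 of the 5 other scalings, and 20 h over 4 h was -0.05 under the median, 0.08 under the spike-in controls and 0.09 for unscaled signals, all within 2 spot errors. The log2 ratio to the control was 0.81 ± 0.20 at 4 h, and 86.7% of all measured probes had a lower ratio. With spike-in scaling this 4 h ratio was 0.41, within 2 spot errors, and with median scaling 0.45, beyond them. The ratio to the control was 0.29 ± 0.20 at 20 h and 0.12 ± 0.20 at 32 h, both within 2 spot errors of 0. At 20 h it passed them with spike-in scaling (0.49) and without scaling (0.62).

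*Nmnat1*, the nuclear enzyme that completes NAD synthesis, had a scaled log2 signal of -1.22 in the control, -1.84 at 4 h, -1.35 at 20 h and -1.35 at 32 h. Here the 4 h array was the lowest, as it was under the 5 other scalings too, below the 20 h array by 0.49 ± 0.21, and the 3 other arrays did not differ beyond 2 spot errors. Its log2 ratio at 4 h was -0.62 ± 0.21, a level 1.54-fold lower than in the control, and 15.6% of all measured probes had a lower ratio. The 4 h ratio of *Nampt* exceeded that of *Nmnat1* by 1.43 ± 0.29, a difference within the same pair of arrays that no scaling by a constant per array can change. The same comparison placed the 4 h ratio of *Nampt* above that of 7 of the 12 other probes by more than 2 errors, while at 20 h and 32 h this held for 0 of 12.

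Among the nuclear sirtuins, *Sirt1* lay above the control at 4 h. *Sirt1*, the best studied NAD-dependent deacetylase, had a scaled log2 signal of -0.84 in the control, -0.39 at 4 h, -0.66 at 20 h and -0.82 at 32 h. Under the scaling used 4 h was highest and the control lowest, but no neighbouring pair in the order differed beyond 2 spot errors, and 4 h was highest under only 2 of the 5 other scalings. Its log2 ratio was 0.45 ± 0.21 at 4 h (1.36-fold), 0.18 ± 0.21 at 20 h and 0.02 ± 0.21 at 32 h. Relative to the median of all probes at 4 h it was higher by 0.28, and 70.2% of all measured probes had a lower ratio. With spike-in scaling the 4 h ratio was 0.05, with median scaling 0.09 and without scaling 0.17, none of them beyond 2 spot errors.

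*Sirt6*, a nuclear sirtuin known for roles in DNA repair and genome stability, had 2 probes 320 bases apart on chromosome 10, and both were lowest at 4 h under each scaling tried. The probe A_55_P2185794 had a scaled log2 signal of -2.06 in the control, -2.64 at 4 h, -2.15 at 20 h and -2.15 at 32 h. The probe A_55_P2072468 gave 0.84, 0.60, 0.87 and 0.89 on the same arrays. The log2 ratio at 4 h was -0.58 ± 0.23 for the first and -0.24 ± 0.20 for the second, so only the first lay beyond 2 spot errors, which the second also did with median (-0.60), spike-in (-0.64) or no scaling (-0.52), and the first minus the second was -0.34 ± 0.31, within 2 errors.

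The 3 probes of *Sirt7*, the sirtuin of the nucleolus, all lay above the control at 4 h under the scaling used. The probe A_51_P352264 had a scaled log2 signal of 2.36 in the control, 2.67 at 4 h, 2.55 at 20 h and 2.51 at 32 h. The probe A_55_P2045697 gave -1.78, -1.42, -1.73 and -1.71, and A_55_P2045693 gave -2.52, -2.02, -2.45 and -2.55. All 3 were highest at 4 h under this scaling, though none was with median, spike-in or no scaling, nor was A_51_P352264 after quantile normalization. With log2 ratios of 0.31 ± 0.20, 0.36 ± 0.21 and 0.49 ± 0.23 only the last, of A_55_P2045693, exceeded 2 spot errors, and none of the 3 pairs of probes differed beyond 2 errors. With scaling by the median or by the spike-in controls, the ratios of A_51_P352264 and A_55_P2045697 turned to the other side of 0. The ratio of A_55_P2045693 fell within 2 spot errors under all 5 other scalings, with 0.09 for spike-in scaling and 0.38 for quantile normalization.

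*Sirt2*, the mainly cytoplasmic sirtuin that deacetylates tubulin, had similar levels at all 3 hours after the pulse under the scaling used. Its scaled log2 signal was 2.19 in the control, 2.49 at 4 h, 2.52 at 20 h and 2.50 at 32 h. The 3 arrays of pulsed cells differed by at most 0.03. The log2 ratios were 0.30 ± 0.20, 0.34 ± 0.20 and 0.32 ± 0.20, none beyond 2 spot errors. The 4 h ratio turned negative with scaling by the median or by the spike-in controls. With spike-in scaling the ratio passed 2 spot errors at 20 h (0.54) and 32 h (0.47). It also did so without scaling at 20 h (0.67) and 32 h (0.50), and with median scaling at 20 h only (0.44).

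Of the mitochondrial sirtuins, *Sirt5* and 1 probe of *Sirt4* had the lowest 4 h ratios of the 13 probes, and *Sirt3* and *Sirt5* were above the control at the later hours. *Sirt5*, which removes succinyl, malonyl and glutaryl groups from mitochondrial enzymes, had a scaled log2 signal of -1.82 ± 0.15 in the control, -3.91 ± 0.21 at 4 h, -1.13 ± 0.15 at 20 h and -1.25 ± 0.15 at 32 h. The unscaled intensity at 4 h was 60.9 ± 8.86, against 314 ± 32.7 in the control, 638 ± 64.3 at 20 h and 527 ± 53.8 at 32 h. The 4 h array stood apart below the others, the control came next, and the 20 h and 32 h arrays were highest and did not differ beyond 2 spot errors. The log2 ratio to the control was -2.08 ± 0.26 at 4 h, and 0.672% of all measured probes had a lower ratio. It was 0.69 ± 0.21 at 20 h (1.62-fold higher) and 0.57 ± 0.21 at 32 h (1.49-fold higher). From 4 h to 20 h the level thus differed by 2.78 ± 0.26, which is 6.85-fold. The size of the 4 h value depended on the background correction: with normexp, a model of signal plus normally distributed background after which an offset of 50 is added to every intensity, the log2 ratio was -1.20.

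*Sirt4*, a mitochondrial sirtuin known to restrain glutamate dehydrogenase, gave different 4 h ratios at its 2 probes. The probe A_51_P424641 had a scaled log2 signal of -0.38 in the control, -1.60 at 4 h, -0.16 at 20 h and -0.32 at 32 h. The probe A_55_P2185372 was dimmer, with -3.41, -3.54, -2.99 and -3.09 on the same arrays. The first was lowest at 4 h by a wide margin, while the second differed little between 4 h and the control. The log2 ratio at 4 h was -1.22 ± 0.21 for A_51_P424641, with 4.93% of all measured probes lower, and -0.13 ± 0.27 for A_55_P2185372. The probes differed by 1.10 ± 0.34 at 4 h, the only one of the 5 pairs of probes of a gene that differed beyond 2 errors in any comparison, and by 0.20 ± 0.32 at 20 h and 0.27 ± 0.33 at 32 h. Their starts lay 1494 bases apart in the genome but 301 bases apart in the annotated transcript, so 1193 bases between them are not in that transcript. Which transcripts each probe detected was not tested.

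*Sirt3*, the main mitochondrial deacetylase, stood at the control level at 4 h and above it later. Its scaled log2 signal was 0.51 in the control, 0.52 at 4 h, 0.94 at 20 h and 0.94 at 32 h. The control and 4 h arrays formed a lower pair and the 20 h and 32 h arrays a higher one, with 0.42 ± 0.20 between them. The log2 ratio was 0.01 ± 0.20 at 4 h, below 0 under each of the 5 other scalings, 0.43 ± 0.20 at 20 h and 0.43 ± 0.20 at 32 h.

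**Figure D2:**
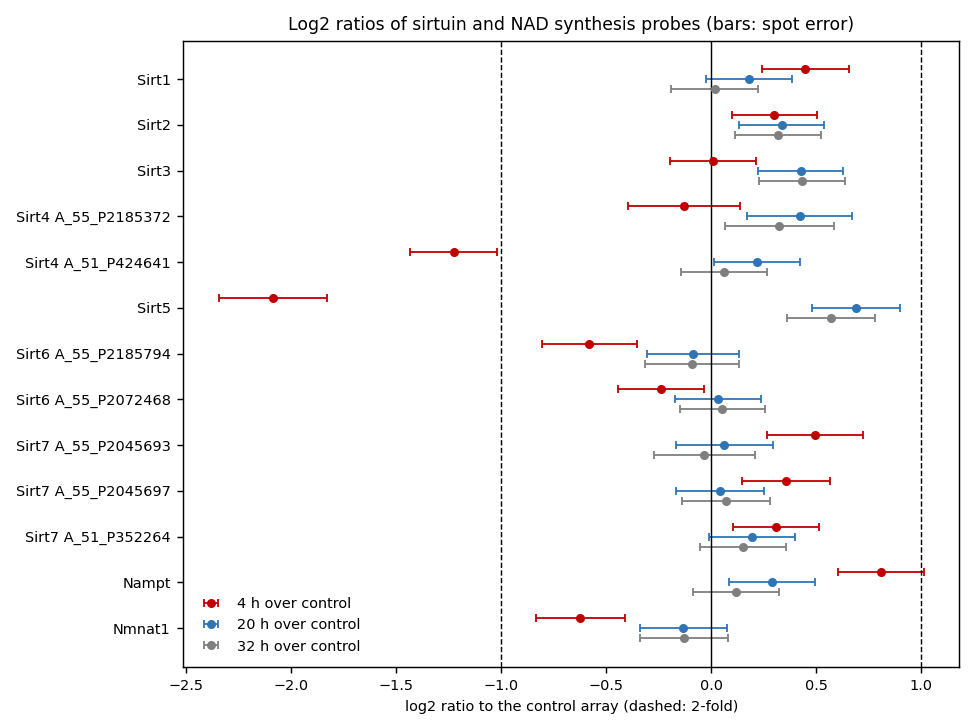
Log2 ratio to the control of each of the 13 probes at 4 h, 20 h and 32 h, with bars giving the spot error and dashed lines at 2-fold. *Sirt5* (-2.08) and *Sirt4* A_51_P424641 (-1.22) lie beyond 2-fold at 4 h, and no probe does so at 20 h or 32 h under the scaling used.

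At 20 h and 32 h the 13 probes were close to the control, and under the scaling used the ratios of *Sirt3* and *Sirt5* were the only ones beyond 2 spot errors. At 20 h, 2 of the 13 were higher beyond 2 spot errors, against 6.77% of all measured probes, and 0 were lower, against 8.71%. At 32 h the counts were again 2 and 0, against 7.47% and 9.07%. *Sirt3* and *Sirt5* stayed beyond 2 spot errors at both hours under the 5 other scalings, but at 20 h other probes joined them, giving 4 higher under the median, 6 under the spike-in controls and 8 for unscaled signals, and at 32 h the number was 3 with spike-in scaling and without scaling. None of the 13 was at least 2-fold from the control at either hour, except *Sirt5* at 20 h without scaling (1.02), where 2.76% of all measured probes were so at 20 h and 2.54% at 32 h. The ratios ran from -0.13 to 0.69 at 20 h and from -0.13 to 0.57 at 32 h, with medians of 0.20 and 0.07 against medians over all measured probes of -0.00 and -0.01. The ratio was above 0 for 11 of the 13 at 20 h and for 10 at 32 h, where 49.5% and 49.1% of all measured probes were above 0. With spike-in scaling and without scaling all 13 were above 0 at both hours.

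Between the antiphase hours of 20 h and 32 h, none of the 13 probes differed beyond 2 spot errors under any of the scalings. The log2 ratios of 20 h over 32 h ran from -0.03 for *Sirt7* A_55_P2045697 to 0.17 for *Nampt*, with *Sirt1* at 0.16 ± 0.21 and *Sirt4* A_51_P424641 at 0.16 ± 0.20. Of all probes measured at both hours, 0.642% differed at least 2-fold, 52.5% were higher at 20 h than at 32 h by any amount, as were 9 of the 13, 1.2% were higher at 20 h beyond 2 spot errors and 2.42% were lower. With spot errors of 0.20 to 0.24, a difference had to reach 1.33-fold to 1.39-fold, depending on the probe, to exceed 2 spot errors in this comparison.

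*Sirt3*, *Sirt5*, *Nmnat1*, 1 *Sirt4* probe and 1 *Sirt6* probe were higher at both later hours than at 4 h. From 4 h to 20 h, 6 of the 13 probes were higher beyond 2 spot errors (*Sirt3*, *Sirt5*, *Nmnat1*, both *Sirt4* probes and *Sirt6* A_55_P2185794) and 1 was lower (*Nampt*), against 22.4% and 36% of all probes measured on both arrays. From 4 h to 32 h, 5 were higher and 3 lower, against 22.8% and 34.4%. The 6 and 5 higher probes stayed so under the 5 other scalings, where up to 9 and 8 were higher, while the lower ones did not: with median, spike-in or no scaling 0 were lower. With normexp background correction only 3 stayed higher at both hours, *Sirt3*, *Sirt5* and *Sirt4* A_51_P424641, and 1 was lower (*Nampt*). *Nmnat1* and *Sirt6* A_55_P2185794 were then within 2 spot errors, taking those of the deposited intensities. *Sirt4* A_51_P424641 was higher at 20 h than at 4 h by a log2 ratio of 1.44 ± 0.21.

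**Figure D3:**
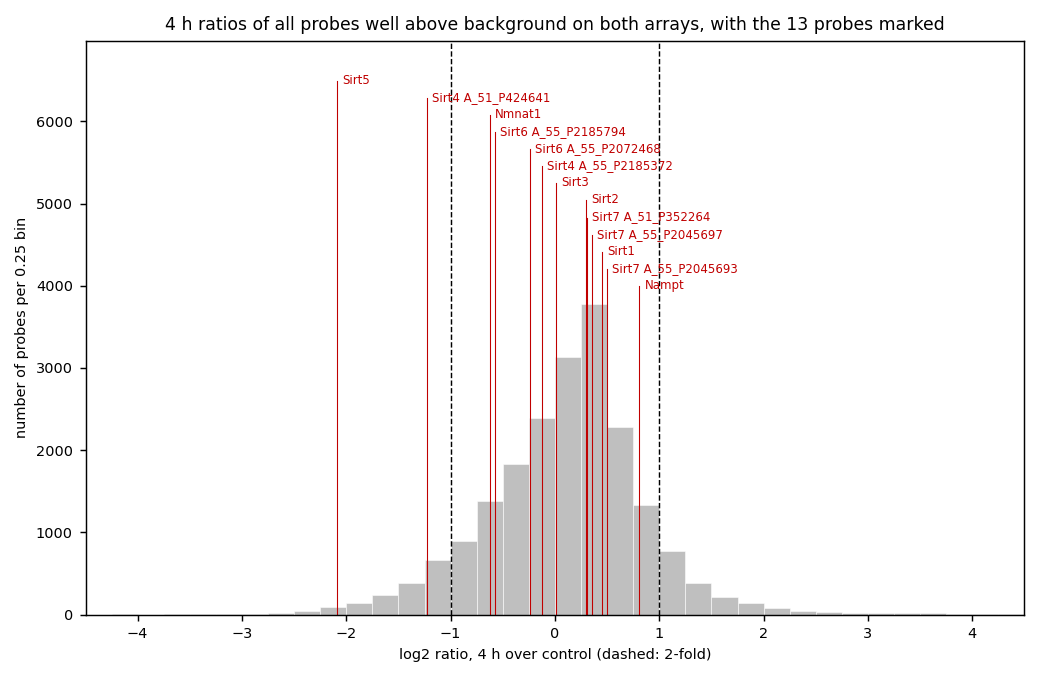
Number of probes in each 0.25-wide bin of the log2 ratio of 4 h over control, for all probes measured on both arrays (grey), with each of the 13 probes marked by a red line and dashed lines at 2-fold. *Sirt5* at -2.08 has 0.672% of the measured probes below it, and *Nampt* at 0.81 has 13.3% above it.

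The scaling between arrays moved the middle of the 4 h distribution, so the side of 0 was settled for only some of the probes. The median log2 ratio of all measured probes at 4 h was 0.17 under the 75th percentile, -0.23 under spike-in scaling, -0.19 under median scaling, -0.11 for unscaled signals and -0.02 after quantile normalization. Relative to the median of all probes under the scaling used, *Nampt* was higher by 0.64, while *Nmnat1* stood at -0.79, *Sirt4* A_51_P424641 at -1.40 and *Sirt5* at -2.26. Over the 5 other scalings, 9 of the 13 probes kept their sign at 4 h, and the exceptions were *Sirt2*, *Sirt3* and the *Sirt7* probes A_55_P2045697 and A_51_P352264. *Nampt* ranged from 0.41 to 0.79, *Sirt1* from 0.05 to 0.45, *Nmnat1* from -1.02 to -0.69, *Sirt4* A_51_P424641 from -1.63 to -1.27 and *Sirt5* from -2.49 to -2.21.

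**Figure D4:**
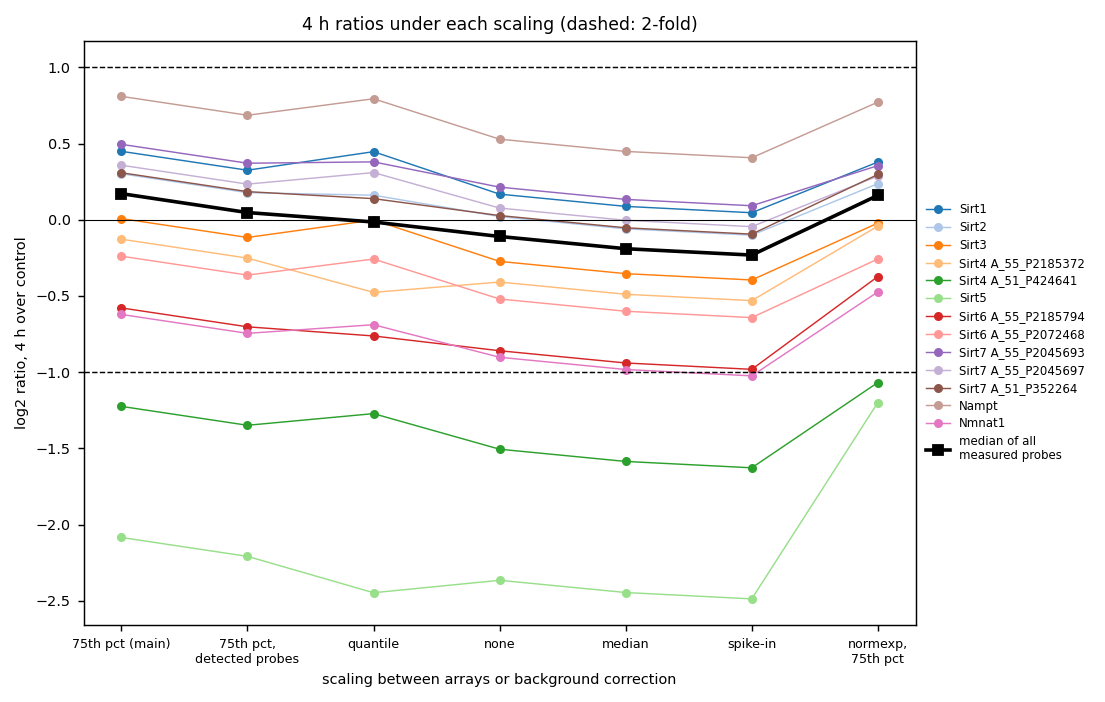
Log2 ratio of 4 h over control of each of the 13 probes (colored lines) and median of all measured probes (black squares) under 6 scalings and with normexp background correction, with dashed lines at 2-fold. *Sirt5* and *Sirt4* A_51_P424641 stay below the lower dashed line throughout, and normexp moves *Sirt5* from -2.08 to -1.20.

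Of the 9 genes, only *Sirt1* held the canonical E-box, CACGTG, in the promoter window searched. In the RefSeq promoters (GRCm38.p6, 250 bases before to 50 after each gene start, 12 entries for the 9 genes), CACGTG was found in 7.15% of all 32851 windows. It was found in 1 of the 12, which is close to that share. The *Sirt1* window held it at 2 places, starting at -115 and -43 relative to the gene start, and the first overlapped a match to TGACNNNGC, the core of the antioxidant response element. Both are shown in capitals in 100 bases at chr10:63339061-63339160, minus strand.
Sirt1 promoter: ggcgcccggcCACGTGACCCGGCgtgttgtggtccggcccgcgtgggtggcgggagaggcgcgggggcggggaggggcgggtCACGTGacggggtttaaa
TGACNNNGC was also found in the windows of *Sirt3* and *Sirt7* and occurred in 12.4% of all windows on either strand. The heat shock element cores GAANNTTC and TTCNNGAA, present in 7.86% and 8.52% of all windows, were in none of the 12. These are matches of letters in a short window. E-boxes outside the window, for *Nampt* or any other of the 9 genes, were not searched for.

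The genes whose 3 ratios were closest to those of *Nampt* were *Prkar1a*, a regulatory subunit of protein kinase A, *Pura* and *Capza1*, at Euclidean distances of 0.033, 0.054 and 0.057 on the log2 scale. Those closest to *Sirt1* were *Atp5f1*, a subunit of ATP synthase, *Smek2* and the clock gene *Per1*, at 0.015, 0.028 and 0.031. For *Nmnat1* they were *Thumpd2*, *Rap1gds1* and *Pspc1*, at 0.030, 0.035 and 0.038. The search ran over 15079 probes, those that carried a gene symbol and were detected on all 4 arrays. All of these distances were smaller than 1 spot error, so the order among near neighbours is not settled by these arrays.

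Other genes of NAD synthesis lay on both sides of the control at 4 h. *Nadsyn1*, which makes NAD by amidation in the routes from nicotinic acid and tryptophan, had scaled log2 signals of 0.19, -1.45, 0.10 and 0.06 (control, then 4 h, 20 h and 32 h), and a 4 h log2 ratio of -1.64 ± 0.21. The mitochondrial NAD kinase *Nadk2* (1110020G09Rik on the array) had a 4 h log2 ratio of -1.36 ± 0.21 and the nicotinamide riboside kinase *Nmrk1* (BC016495) -1.10 ± 0.26. In the other direction, *Afmid*, an enzyme of tryptophan breakdown, had 1.25 ± 0.36 from dim signals, and *Nmrk2* (Itgb1bp3), which was well above background at 4 h only, was at least 2.54-fold higher. Of the 18 genes of this list on the array, 10 were measured at 4 h and 3 had a bound. Of these, 2 were at least 2-fold higher and 3 lower, against 11.2% and 8.18% of all probes with either. With median, quantile or spike-in scaling 0 were higher, and 3, 4 and 4 were lower. The median over those measured was -0.48, against 0.17 over all genes. At 20 h *Qprt*, which feeds the product of tryptophan breakdown into NAD, was the only gene past 2-fold, with -1.21 ± 0.33, and at 32 h it was at least 2.33-fold lower. Its scaled log2 signals were dim, -3.51 in the control and -4.72 at 20 h.

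Among the 22 genes of NAD consumption, 17 were measured at 4 h and 2 were at least 2-fold lower, where 7.91% of all measured probes were so. With median, spike-in or no scaling 5 were lower, with quantile normalization 4 and with normexp 1. The 2 under the scaling used were *Parp2* and *Nnmt*. *Parp2*, a DNA damage-activated ADP-ribose polymerase, had a log2 ratio of -1.90 ± 0.32 from a dim 4 h signal of -4.15. *Nnmt*, which methylates nicotinamide, had -1.32 ± 0.21. Both were within 2-fold of the control at the later hours, with *Parp2* at -0.07 and *Nnmt* at 0.62 at 20 h. None of this list was at least 2-fold higher at 4 h, where 11.2% of all probes with a measured ratio or a bound were so. The median over those measured was -0.24, against 0.17 over all genes. At 32 h *Parp8* stood at 1.03 ± 0.20.

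Among 17 genes that regulate sirtuins or are acted on by them, 3 of the 14 measured were at least 2-fold higher at 4 h and 0 were lower. Of all measured probes, 8.63% were higher and 7.91% lower. This list depended on the scaling, with 0 higher and 2 lower under median or spike-in scaling. Quantile normalization gave 0 and 0, no scaling 0 and 1, and the 75th percentile of detected probes 1 and 0. *Sod2*, the mitochondrial superoxide dismutase activated by SIRT3, had scaled log2 signals of 6.95, 8.18, 7.36 and 7.44 on the 4 arrays and a 4 h log2 ratio of 1.23 ± 0.20. *Foxo3*, a stress-responsive transcription factor, had 1.11 ± 0.30 from dim signals, -3.95 in the control and -2.84 at 4 h. *Ppargc1a*, a coactivator of mitochondrial genes, had 1.03 ± 0.20. *Acss2*, an acetyl-CoA synthetase, was -0.55 ± 0.21 at 4 h and 1.14 ± 0.21 and 1.53 ± 0.21 at 20 h and 32 h. Over the 3 lists in this order, 10, 17 and 14 genes were measured at 4 h and 3, 2 and 0 had a bound. Of these genes, 5 were at least 2-fold higher and 5 lower, against 11.2% and 8.18% of all probes with either. The split depended on the scaling, since the 5 higher became 0 with the median, quantile or spike-in scaling, and the 5 lower became 10, 8 and 11. At 20 h, 10, 18 and 14 genes were measured and 0 had a bound. Of these, 1 was higher and 1 lower, against 1.37% and 3.35% of all probes with a measured ratio or a bound. At 32 h, 9, 18 and 14 genes were measured and 2, 1 and 0 had a bound. Of these, 2 were higher and 1 lower, against 2.07% and 2.59%.

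**Figure D5:**
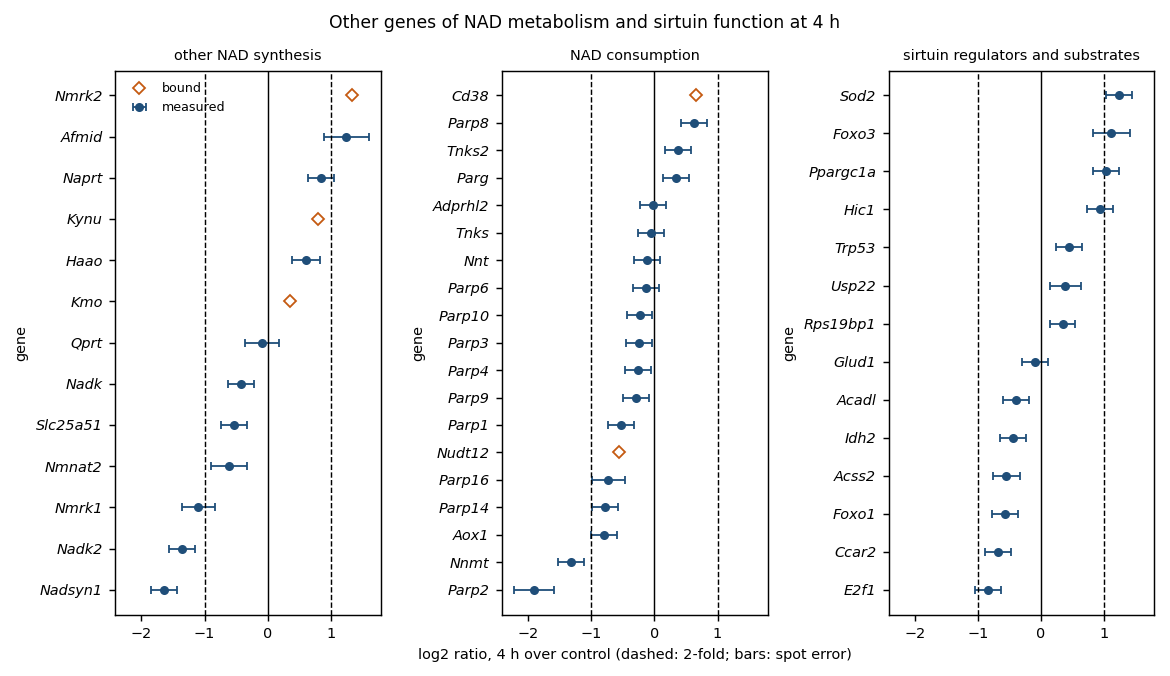
Log2 ratio of 4 h over control for the brightest probe of each gene in 3 lists, with filled points for measured ratios (bars: spot error), open diamonds for bounds and dashed lines at 2-fold. *Parp2* (-1.90, from a dim 4 h signal) and *Nadsyn1* (-1.64) are lowest, and *Nmrk2* (bound), *Afmid* (1.25) and *Sod2* (1.23) are highest.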

How the data were processed

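RNA of NIH-3T3:Per2-Luc cells was hybridized to Agilent one-color arrays, and the authors deposited scanner intensities (Feature Extraction 10.7.3.1, annotation on mm9) with background and spatial trend subtracted, and a table that was found, over 44397 spots each, to hold these intensities over an array-wide constant. From the deposited intensities, log2 signals of unflagged spots were averaged per probe after which each array's 75th percentile was subtracted. A ratio was measured where at least 50% of the spots were well above background on both arrays. Where this held on 1 array, the ratio was bounded by replacing the undetected signal with the detection limit of its array, where that was higher. With 1 array per group no test was run, and the SAM analysis named in the methods was not repeated. The threshold was 2-fold, and errors were propagated from both spots. The members and gene lists were chosen with earlier results of these data known. All 9 genes were named, as were list genes past 2-fold and the 3 nearest genes by Euclidean distance to *Nampt*, *Sirt1* and *Nmnat1*. Alternatives were 5 scalings, normexp (limma 3.58.1, R 4.3.3), detection rules, flagged spots kept, 1.5-fold and 3-fold thresholds, the median of a gene's probes and the deposited table. On simulated data for 4 h over control, 200 of 200 probes changed 4-fold among 21057 were recovered and 0 unchanged probes were called. The simulated noise was far below the spot errors and every probe counted as detected. That run therefore checks the arithmetic of the ratio step and not the reliability of the calls. Python 3.11.15, numpy 2.4.6 and pandas 2.3.3 were used.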

Additional observations from a re-analysis of the deposited data

Results flagged for a closer look

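*Sirt5* stood on opposite sides of the control at different hours, with a log2 ratio to the control of -2.08 at 4 h, 0.69 at 20 h and 0.57 at 32 h. The difference between hours was not tested, since each hour had 1 array and all 3 ratios share the control array.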

How the results depend on the processing

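No paired analysis was possible because each condition had 1 array. Only the 2 probe ratios past 2-fold, both at 4 h, could be reversed in the sense of such a value changing side. Neither was reversed under any alternative run. Ratios within 2-fold did change side under at least 1 of the 5 other scalings. These were 4 of the 13 at 4 h, 2 at 20 h, 3 at 32 h and 5 for 20 h over 32 h. For the 13 probes, the number at least 2-fold higher at 20 h was 1 without scaling (*Sirt5*, 1.02) and 1 with a threshold of 1.5-fold, the number higher at 4 h was 1 with 1.5-fold, and the number lower at 4 h was 1 with 3-fold. For the 3 pathway lists at 4 h, the number higher (5) became 0 with median, quantile and spike-in scaling, 3 with the 75th percentile of detected probes, 1 without scaling, 1 with normexp, 9 without a detection filter, 9 with the positive and significant flag, 11 with 1.5-fold and 0 with 3-fold, and the number lower (5) became 10, 8 and 11 with median, quantile and spike-in scaling, 9 without scaling, 3 with normexp, 11 with 1.5-fold and 2 with 3-fold. At 20 h, the number higher (1) became 2 with spike-in scaling, 2 without scaling, 3 with 1.5-fold, 0 with 3-fold and 0 with the median over the probes of a gene, and the number lower (1) became 0 without scaling, 0 with normexp, 0 with 3-fold, and 2 without a detection filter, with the positive and significant flag and with 1.5-fold. At 32 h, the number higher (2) became 1 with normexp, 4 without a detection filter, 4 with the positive and significant flag and 0 with 3-fold, and the number lower (1) became 0 with normexp, with detection on both arrays and with 3-fold, and 2 without a detection filter, with the positive and significant flag and with 1.5-fold. Between 20 h and 32 h, the number lower (0) became 2 without a detection filter, 2 with the positive and significant flag and 1 with 1.5-fold. Other thresholds and detection rules change these counts by their construction. The causes of the other shifts were not tested. Of the other counts, 171 stayed within 1.5 times the main one. Of the single ratios, 620 moved by less than the spot error and 56 by more. The 620 include ratios that could not move. Other thresholds and detection rules leave the ratio of a probe detected on all arrays as it was. Signals near the background, such as *Sirt5* at 4 h and *Sirt4* A_55_P2185372, were the least precise of the 13. With normexp, 1 probe was higher (*Nampt*) and 3 lower beyond 2 spot errors at 4 h, where *Sirt6* A_55_P2185794 no longer passed (-0.37), and *Sirt5* was the 1 probe beyond them at 20 h, taking the spot errors of the deposited intensities.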
